A study of Mus musculus with 4 samples.

Results

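The keratin genes of the mouse genome were placed in the topologically associating domains (TADs) that were called in AML12 cells from 2D culture and from 3D culture. All autosomal protein-coding genes of GENCODE release M21 (GRCm38, the build that mm10 names) whose symbol is Krt followed by digits were taken, with or without a final letter, and keratin-associated protein genes (Krtap) were left out. This gave 53 genes of 20807 autosomal protein-coding genes, with 27 on chromosome 11 and 26 on chromosome 15. AML12 is an immortalized hepatocyte line, derived from a mouse transgenic for human transforming growth factor alpha, and no other line was used. The lists hold no expression values, so its identity could not be checked against marker genes. In situ Hi-C, which records contacts between genomic positions by cutting crosslinked chromatin with MboI inside the nucleus and ligating nearby ends, was performed on 2 replicates of cells plated in dishes (2D) and on 2 replicates of cells embedded in Matrigel (3D). Both cultures had received 1 mM hydroxyurea, an inhibitor of DNA replication, with 24 h of exposure for the dishes and 36 h for the Matrigel cultures, so the arrested state is common to both groups and the exposure time differs with the culture. The measurement is the position of each TAD on a grid of 40 kb, in 1 list per culture (4467 TADs in 2D and 4355 in 3D), called by the authors after the replicates had been combined. There is therefore no spread between replicates and no p-value, and how many contacts support a single TAD is unknown. Genes that share a TAD are not independent, so the counts of the family are given beside the same counts over all autosomal protein-coding genes, as a description.

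Keratins are the intermediate filament proteins of epithelia. Filaments form only when a type I (acidic) keratin pairs with a type II (basic or neutral) keratin, and in the mouse the type I genes lie on chromosome 11 and the type II genes on chromosome 15. The exception is Krt18, a type I gene that lies at the end of the type II cluster beside its partner Krt8. Krt8 and Krt18 form the filaments of hepatocytes, while Krt19 and Krt7 are known from bile duct epithelium. Most other members belong to stratified epithelia and to the hair follicle. TADs are stretches of chromatin whose sequences contact each other more often than they contact sequences outside, and they are thought to limit which regulatory elements a promoter meets.

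Nearly all keratin genes started inside a TAD, and few TADs were enough to hold the family. In 2D, 51 of the 53 starts lay inside a TAD and 2 outside (3.77%), against 22.7% of all autosomal protein-coding genes outside. In 3D all 53 lay inside a TAD, where 15.9% of all genes lay outside. The 51 starts of the 2D list were spread over 3 TADs and the 53 starts of the 3D list over 4. Of the 51 pairs of neighbouring keratin genes within a chromosome, 48 shared a TAD in 2D (94.1%) and 49 in 3D (96.1%). Of neighbouring protein-coding genes in general, 57.9% and 65.1% did. The pairs are unlike, since keratin neighbours were consecutive keratin genes with any other genes between them skipped. A pair in an unassigned stretch counted as not sharing, which held for Krt8 and Krt18 in 2D. Few keratin genes were within 1 bin of a border, which is the start or end of a TAD. In each culture 6 of the 53 (11.3%) started within 40 kb of one, against 41.6% of all genes in 2D and 38.9% in 3D. These counts depended on the definition. Within 80 kb lay 19 keratin genes in 2D (35.8%, against 63.8% of all genes) and 18 in 3D (34%, against 60.4%). With only positions where 2 TADs meet taken as borders, 3 lay within 40 kb in 2D (5.66%, against 18.5% of all genes) and 6 in 3D (11.3%, against 21.6%). As the genes lie in so few TADs, these shares describe a handful of domains and not 53 separate placements.

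The chromosome 11 cluster was a single domain in both cultures. Its 27 genes, all on the minus strand, extended from Krt222 to Krt42 over 1037 kb (chr11:99232761-100269871). In 2D all 27 started in the TAD from 99240001 to 100320000, of 1080 kb. In 3D all 27 started in the TAD from 99160001 to 100320000, of 1160 kb. All 26 pairs of neighbours thus shared a TAD in both cultures. The genes lay in 2 blocks, since the starts of Krt40 and Krt33a, which both encode hair keratins, were 473 kb apart, and 23 Krtap genes started in the same TAD. Neither list had a border between the blocks.

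**Figure D1:**
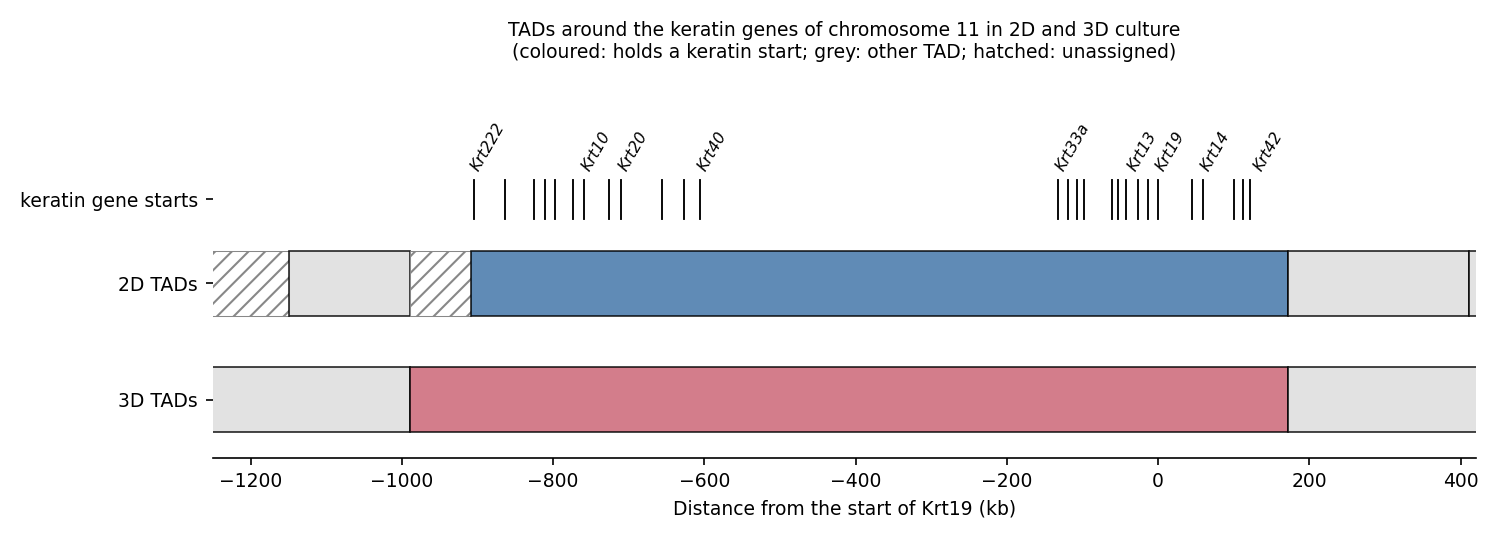
Map of the chromosome 11 keratin cluster, with the distance from the start of Krt19 in kb on the horizontal axis, a vertical tick for each of the 27 keratin gene starts, and the TADs of the 2D and 3D lists as boxes. All ticks stand over 1 box in each culture, and the boxes end at the same position on the right but start 80 kb apart on the left.

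The cultures differed at the left end of this domain. The 2D border at 99240000 fell within the Krt222 record (chr11:99232761-99244085), in intron 2 of its principal transcript and 4.09 kb from its start. The grid of 40 kb is longer than this record of 11.3 kb. The list therefore does not resolve whether a domain ends inside Krt222. The 3D border nearest to 99240000 lay 80 kb away, at 99160000. That position was a border in both lists, and in 2D it was the end of the preceding TAD. The 2D list thus had an additional border at 99240000. The 80 kb between the 2 positions were unassigned in 2D. They held a single coding start, that of Smarce1, a subunit of the SWI/SNF chromatin remodelling complex. The end at 100320000 was identical in both lists and fell within the record of Eif1, which encodes a translation initiation factor. When a counterpart was defined as a TAD of the 3D list with both ends within 40 kb, the 2D TAD of this cluster had none, so that 0 of its 27 genes counted as lying in a matched TAD. With 80 kb allowed, or with a reciprocal overlap of 80%, all 27 did. The family then had 51 genes with a counterpart (96.2%) under either rule and also with an overlap of 50%, against 59.3% of all genes at 80 kb, 55.4% at an overlap of 80% and 68.6% at 50%. With identical ends required, 7 keratin genes, all on chromosome 15, had a counterpart (13.2%, against 35.7% of all genes), so the family's share rests on the distance allowed as well as on this border. At 40 kb it was 24 of 53 genes (45.3%), against 52% of all genes, and 92.3% (24 of 26) on chromosome 15 alone.

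The chromosome 15 cluster was divided. Its 26 genes, 22 on the minus and 4 on the plus strand, extended from Krt80 to Krt18 over 685 kb (chr15:101347444-102032027), and their starts fell in 2 TADs and an unassigned stretch in 2D and in 3 TADs in 3D. The first TAD, from 101320001 to 101520000 (200 kb), was identical in both cultures and held 7 keratin starts. They were those of Krt80, Krt7, Krt87, Krt88, Krt81, Krt86 and Krt83. The second TAD started at 101520001 in both cultures and held 17 keratin starts, from Krt84 to Krt78. It ended at 102000000 in 2D (480 kb) and at 101960000 in 3D (440 kb), which is 1 bin apart, so the pair counted as counterparts. Within the span of the cluster each list had 2 borders, and each of these had a border of the other list within 40 kb. The common border at 101520000 lay between the starts of Krt83, 28.5 kb before it, and Krt84, 12.8 kb after it. Krt81, Krt83 and Krt86 on one side of it and Krt84 and Krt82 on the other were all listed as hair shaft keratins. That class was assigned from outside these data. This border thus divided genes of a single listed class in both cultures.

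**Figure D2:**
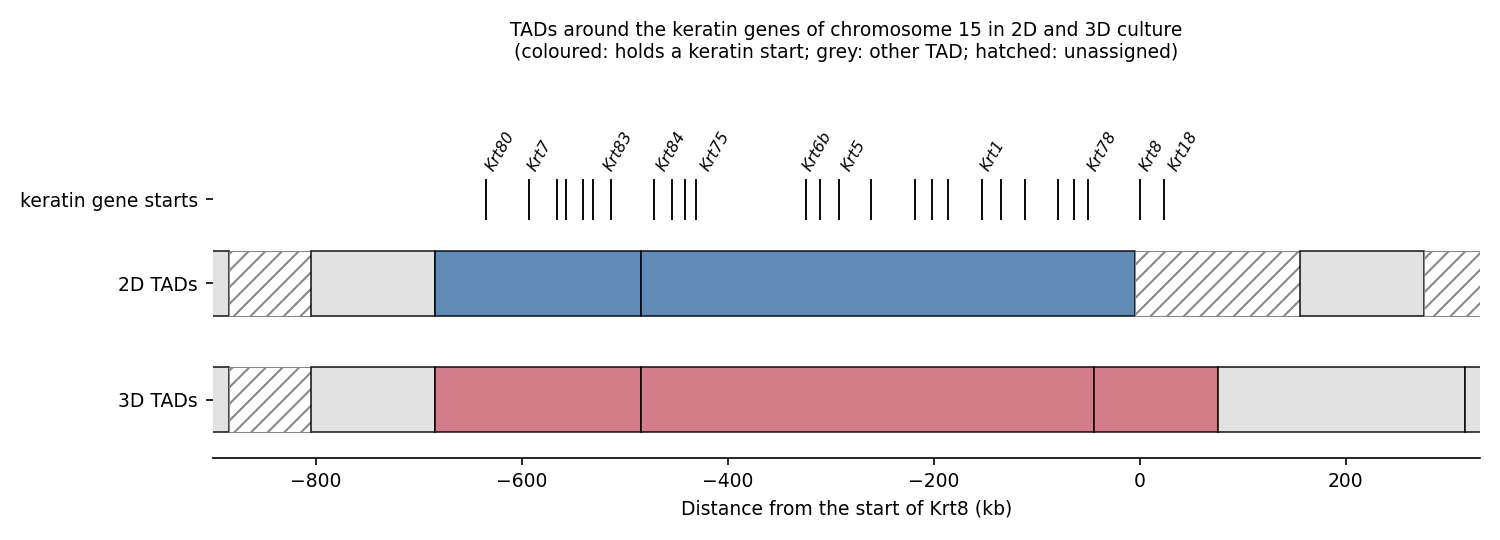
Map of the chromosome 15 keratin cluster, with the distance from the start of Krt8 in kb on the horizontal axis, a vertical tick for each of the 26 keratin gene starts, and the TADs of the 2D and 3D lists as boxes with unassigned stretches hatched. Krt8 and Krt18 stand over a hatched stretch in 2D and over a TAD of 120 kb in 3D.

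Krt8 and Krt18 were the 2 keratin genes whose starts lay outside TADs in one culture and inside a TAD in the other. They are the last genes of the cluster and lie head to head, with 23.7 kb between their starts. In 2D both starts fell in an unassigned stretch of 160 kb, from 102000001 to 102160000. The border at 102000000 lay in intron 3 of the principal Krt8 transcript (9 exons, record chr15:101996698-102004482), 4.48 kb from the start of Krt8 and 28.2 kb from that of Krt18 (chr15:102028180-102032027). Only 5.58% of all genes started nearer to a 2D border than Krt8. Borders lie on a grid of 40 kb, which is longer than the Krt8 record of 7.79 kb. The intron, the distances and this rank therefore describe the listed grid position. They do not resolve whether a domain ends inside Krt8. In 3D both starts lay in a TAD of 120 kb, from 101960001 to 102080000, which is the shortest size in the lists. In that TAD, Krt8 started 44.5 kb from the nearest border and Krt18 51.8 kb, and Eif4b, a translation initiation factor, was the only other coding gene to start there. The 3D border at 101960000 lay between Krt78, whose start was 5.71 kb before it, and the Krt8 record, which began 36.7 kb after it. Thus 2 of 53 keratin genes (3.77%) moved from outside TADs in 2D to inside a TAD in 3D, against 10.5% of all genes. The records of 2 keratin genes, Krt222 and Krt8, crossed a border in 2D (15% of all genes did) and none did in 3D (13.9% of all genes). Keratin records ran from 2.81 kb (Krt16) to 22.7 kb (Krt80). All were shorter than the 40 kb grid, so a crossing is that of a listed position. A longer record meets a border more easily, and these shares were not matched for length. With only TADs of at least 200 kb, Krt8 and Krt18 lay outside TADs in both cultures. With unassigned stretches cut into segments of 80 kb, both lay in a 2D segment that counted as the counterpart of the 3D TAD.

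The promoters of this pair are shown because these were the keratin genes whose starts lay outside TADs in one culture and inside in the other. They are the RefSeq sequences of GRCm38.p6, from 250 bases before to 50 bases after the RefSeq start and written 5′ to 3′ on the strand of the gene, at chr15:102004293-102004592 (minus strand) for Krt8 and chr15:102027966-102028265 (plus strand) for Krt18. Capitals mark matches on either strand to any of 3 promoter motifs. The letters of the TATA box, which acts at a short distance upstream of a transcription start, were searched as TATAAA. The element bound by Sp1 was searched as GGGCGG. The element bound by AP-1 factors was searched as TGANTCA. The capitals in Krt8 are 2 overlapping TATAAA matches, 1 on each strand, which began 1 and 3 bases before the RefSeq start and so lie at that start. The RefSeq start lay 140 bases downstream of the GENCODE start used for the placements for Krt8 and 36 bases downstream for Krt18. The Krt18 window held no match to any of the 3.
Krt8 promoter: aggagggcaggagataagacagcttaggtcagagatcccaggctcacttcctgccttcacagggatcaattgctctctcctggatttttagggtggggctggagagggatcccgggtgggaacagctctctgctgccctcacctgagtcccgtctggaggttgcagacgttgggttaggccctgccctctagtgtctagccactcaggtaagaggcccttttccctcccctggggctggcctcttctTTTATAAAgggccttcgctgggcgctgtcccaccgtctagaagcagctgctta
Krt18 promoter: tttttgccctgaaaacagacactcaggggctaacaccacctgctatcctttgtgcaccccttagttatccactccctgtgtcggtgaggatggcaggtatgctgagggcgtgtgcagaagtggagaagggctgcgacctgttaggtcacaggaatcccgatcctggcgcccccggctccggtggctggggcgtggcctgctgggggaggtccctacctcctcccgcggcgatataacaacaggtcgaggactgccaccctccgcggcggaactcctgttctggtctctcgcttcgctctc
TATAAA occurred in 13.6% of 32544 RefSeq promoter windows, GGGCGG in 35.9% and TGANTCA in 7.79%. A match is a description of the letters and no evidence of a bound factor.

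CTCF, a zinc finger protein, is commonly found at TAD borders, and the letters of its motif were therefore searched around the clusters on both strands. A wide form of the CTCF core motif, 12 bases with 8 fixed, occurred in 78.3% of all autosomal 40 kb bins. It stood beside 8 of the 8 distinct border positions of TADs with a keratin start, and beside 92.5% of all positions of the grid, so it separated nothing. A narrower form of the same length with 10 fixed bases, chosen after this was seen, occurred in 9.63% of bins. In either of the bins beside the border it was found at 7 of the 8 positions, against 17.7% of grid positions over all autosomes and 35 of 83 (42.2%) within the windows around both clusters. The borders at 101960000 and 102000000 were counted with the same match. The 2D border inside Krt222 was the one without a match. The matches beside the borders of chromosome 15 are shown with 9 bases on each side, on the strand of the match and with the motif in capitals, together with the match nearest to Krt19.
chr15:101342409-101342438, minus strand, 22.4 kb from the border at 101320000: tggagccacCCACAAGGTGGCtcacaagct
chr15:101538024-101538053, plus strand, 18.0 kb from the border at 101520000: ggcaggtcaCCACCAGGAGGCactttcatg
chr15:101988275-101988304, plus strand, 11.7 kb from the 2D border and 28.3 kb from the 3D border next to Krt8: tcacgttgtCCACCAGGAGGCgccggaaac
chr15:102065813-102065842, minus strand, 14.2 kb from the 3D border at 102080000: gctagaaggCCACCAGGGGGCagagaaggg
chr11:100169559-100169588, plus strand, 20.9 kb from the start of Krt19: gtaatatgtCCACAAGGGGGCgctgcagcc
The matches at 101988275 and 102065813 lay on either side of Krt8 and Krt18 and pointed towards each other, 16.2 kb from the start of Krt8 and 37.6 kb from the start of Krt18. The match near Krt19 lay 150 kb from the nearest border of either list, inside the TAD.

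Krt19 (chr11:100140810-100148665, minus strand), known from duct and progenitor cells of the liver, was placed alike in both cultures. It started in the large TAD of the type I cluster, 171 kb from the right border, which both lists share. The left border of the 2D domain lay 909 kb away and that of the 3D domain 989 kb, the 80 kb by which the domain was longer. Of all genes, 80.1% in 2D and 79.1% in 3D started nearer to a border than Krt19. The keratin genes that flank it were Krt15, of basal cells, and Krt9, of palm and sole epidermis. The genes known from simple epithelia thus differed in their placement. Krt19, Krt20 and Krt23 lay deep in the chromosome 11 TAD, Krt7 lay 91.0 kb from the nearest border in the identical first TAD of chromosome 15, and Krt8 and Krt18 lay at the edge of the type II cluster. No keratin gene of chromosome 11 started outside a TAD in either culture. Placed by the midpoint or by the whole gene, 26 of the 27 lay inside a TAD in 2D and all 27 in 3D. The exception was Krt222, whose record the 2D border crosses.

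Distances to the nearest border shifted in blocks. On chromosome 11 they had a median of 182 kb in 2D (range 4.09 to 304 kb) and 214 kb in 3D (50.1 to 383 kb). The 12 genes from Krt222 to Krt40 were each 80 kb farther from a border in 3D, and the 15 from Krt33a to Krt42 had the same distance. On chromosome 15 the median was 73.8 kb in 2D (4.48 to 223 kb) and 61.7 kb in 3D (5.71 to 217 kb). There 14 genes from Krt80 to Krt5 kept their distance, 10 genes from Krt71 to Krt78 were nearer to a border in 3D (3D minus 2D, -40 to -6.22 kb), and Krt8 and Krt18 were 40 kb and 23.6 kb farther away. All genes had medians of 52.9 kb (2D) and 58.1 kb (3D). The distance was the same in both cultures for 29 of 53 keratin genes (54.7%), against 63.4% of all genes. It was farther in 3D for 14 (26.4%, against 20.1%) and nearer for 10 (18.9%, against 16.5%), so the shares in either direction were close to those of genes in general. The genes with a changed distance are not separate changes, since they share a few borders that differ between the lists. In 3D the nearest border was the one at 101960000 for Krt8 and the one at 102080000 for Krt18. Within 40 kb of a border lay Krt222, Krt83, Krt84, Krt82, Krt8 and Krt18 in 2D, and Krt83, Krt84, Krt82, Krt4, Krt79 and Krt78 in 3D.

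**Figure D3:**
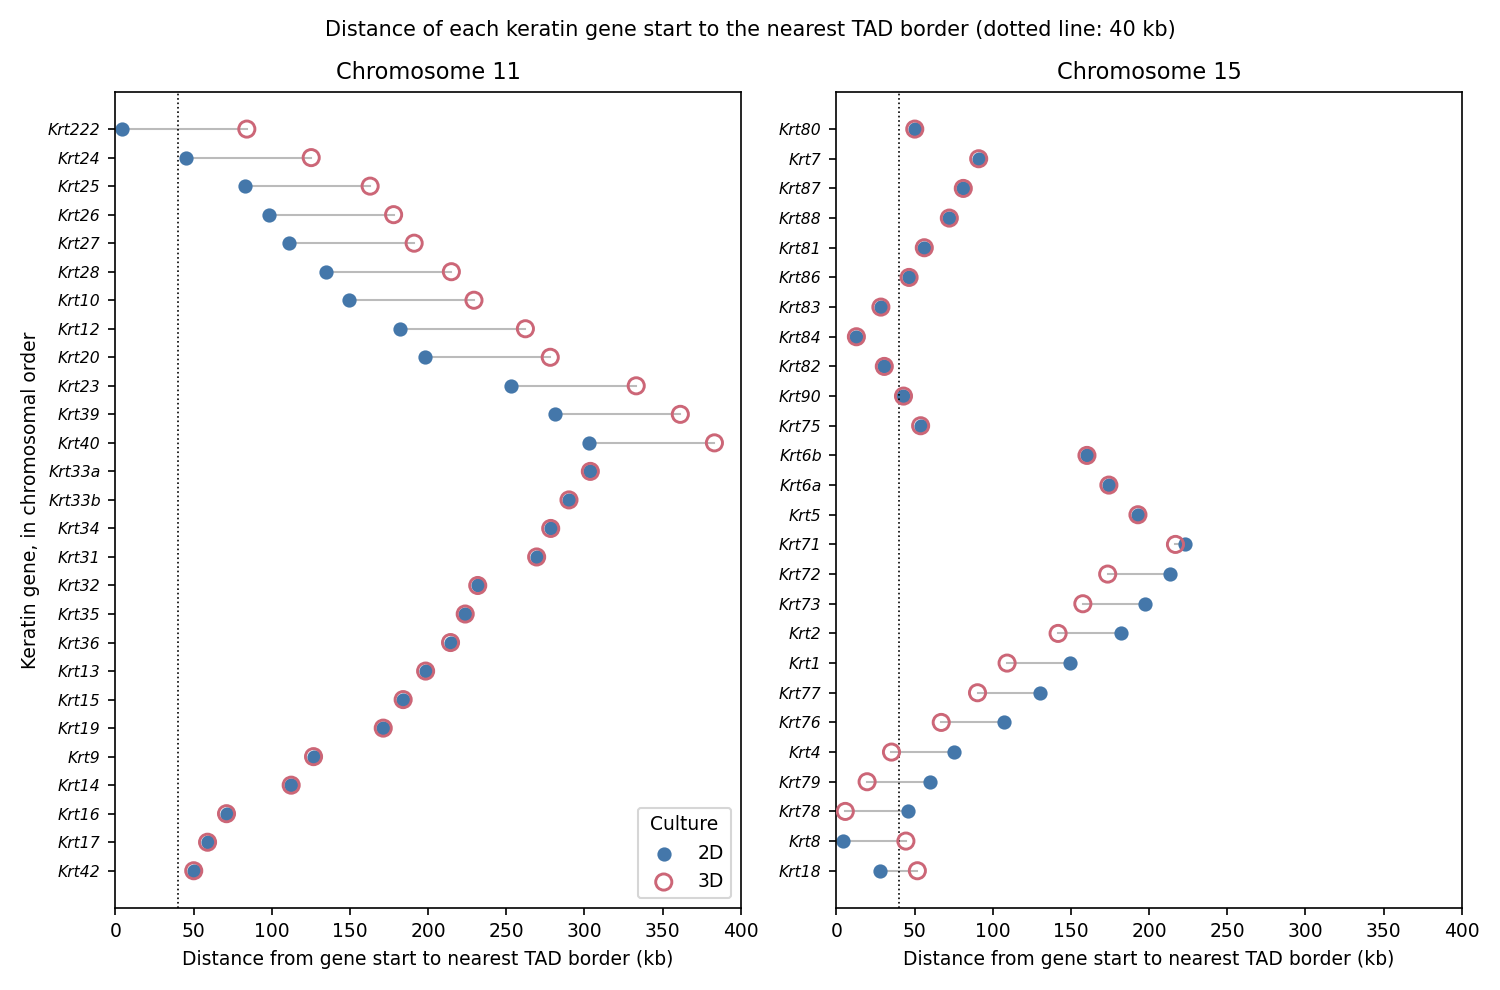
Distance from each keratin gene start to the nearest TAD border in kb, for chromosome 11 (27 genes) and chromosome 15 (26 genes), with filled points for 2D, open circles for 3D and a dotted line at 40 kb. The first 12 genes of chromosome 11 sit 80 kb farther right in 3D. From 2D to 3D, Krt222, Krt8 and Krt18 cross the dotted line from left to right, and Krt4, Krt79 and Krt78 from right to left.

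The clusters also differed in the size and content of their TADs. The chromosome 11 TAD was longer than 86.9% of the TADs of the 2D list and 88.1% of those of the 3D list. It held 69 protein-coding starts in 2D, the sixth highest number of any TAD, of which 27 were keratin and 23 Krtap genes, and 70 in 3D, the seventh highest. Keratin genes were thus 39.1% of its coding starts in 2D and 38.6% in 3D. The other 19 starts in 2D were Eif1 and genes with Gm or Rik symbols. Whether those genes are related to Krt or Krtap genes was not examined, so the shares count by symbol. Krtap genes encode the matrix proteins that embed hair keratin filaments. On chromosome 15 the TADs were shorter and, by symbol, almost purely of keratin genes. The first TAD had 7 keratin genes among 8 coding starts (87.5%) and the second had 17 among 19 (89.5%) in both cultures. In the 3D TAD of Krt8 and Krt18 these made up 2 of 3 coding starts, and in the 2D unassigned stretch 2 of 7, the others being Eif4b, Tns2, Spryd3, Igfbp6 and Soat2. Soat2 encodes a cholesterol esterification enzyme of the liver. The neighbours on the far side of Krt18 thus shared its unassigned stretch in 2D, while in 3D the border at 102080000, which fell within Eif4b, separated Tns2, Spryd3, Igfbp6 and Soat2 from it.

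**Figure D4:**
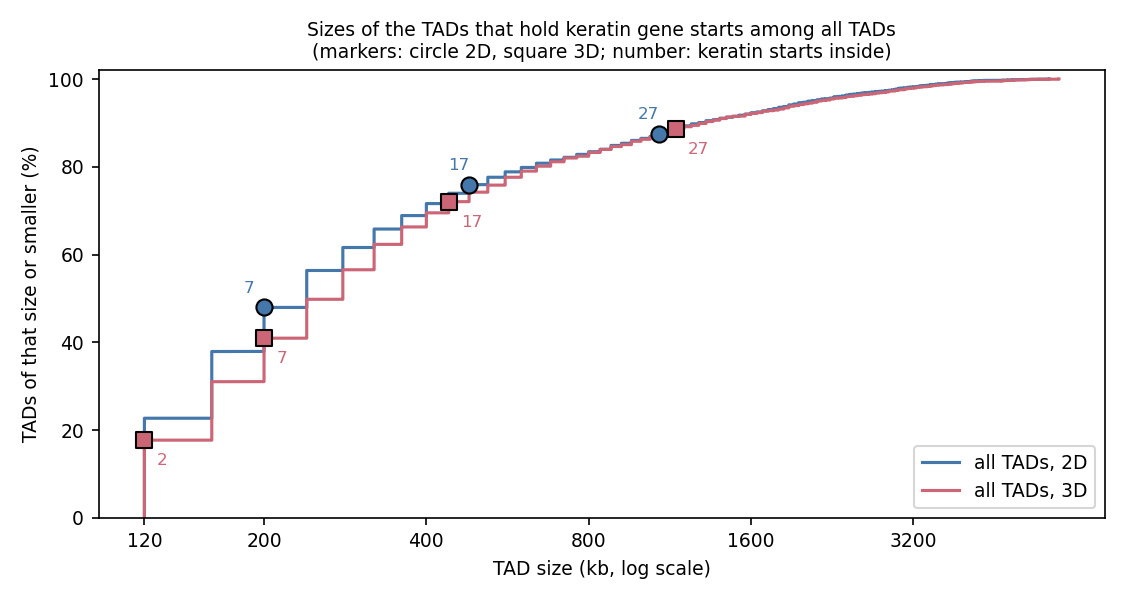
Cumulative share of all TADs by size in kb (log scale) for the 2D and 3D lists as lines, with the TADs that hold keratin starts as circles (2D) and squares (3D) and the number of keratin starts beside each. The chromosome 11 TAD (27 starts) stands at 1080 kb (2D) and 1160 kb (3D), and only the 3D list has a keratin TAD of 120 kb.

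Read by where the proteins are known to act, 45 of the 53 genes fell into lists of keratin classes and 8 into none. All 3 basal genes (Krt5, Krt14 and Krt15), all 3 suprabasal genes (Krt1, Krt2 and Krt10) and all 4 stress-induced genes (Krt6a, Krt6b, Krt16 and Krt17) started inside a TAD in both cultures. So did all 7 inner root sheath genes and all 14 hair shaft genes found. Krt5 and Krt14, the filament pair of basal keratinocytes, started 193 kb and 112 kb from the nearest border in both cultures. Krt1 and Krt10, the pair of the suprabasal epidermis, had different distances, with Krt1 going from 149 kb (2D) to 109 kb (3D) and Krt10 from 149 kb (2D) to 229 kb (3D). Only the simple epithelial class had members outside TADs, Krt8 and Krt18 in 2D, so that 4 of its 6 genes lay inside in 2D and 6 of 6 in 3D. These 2 genes are neighbours, and 22.7% of all genes lay outside TADs in 2D and 15.9% in 3D, so the counts per class are small numbers of linked genes and single out no class. Whether a gene's TAD had a counterpart followed the chromosome and not the class. In each class the genes on chromosome 11 had none within 40 kb, and those on chromosome 15 had one except Krt8 and Krt18.

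Filament genes outside the clusters and the proteins that anchor filaments gave a comparison. Of 15 other intermediate filament genes, such as Vim (vimentin) and Lmna (lamin A/C), 14 started inside a TAD in 2D and 15 in 3D, where 22.7% and 15.9% of all genes lay outside, and 9 lay in a 2D TAD with a counterpart (52% of all genes). Within 40 kb of a border lay 7 of these in 2D (41.6% of all genes) and 8 in 3D (38.9%), so these counts were near those of genes in general. Of 11 partners, such as Plec (plectin) and Dsp (desmoplakin), all lay inside a TAD in both cultures, 8 had a counterpart, and 3 lay within 40 kb of a border in each culture, in a list too short to set apart from those shares. Jup, which encodes the desmosomal protein plakoglobin, lies beyond the right end of the chromosome 11 cluster and started 77.8 kb from the common border at 100320000 in both cultures, in a TAD of 240 kb in 2D and 400 kb in 3D. Krtap genes were found on 5 chromosomes, 57 in all. Of these, 26 lay in a 2D TAD with a counterpart (52% of all genes did), namely the 24 of chromosome 16 and the 2 of chromosome 1. None of the others did, with 0 of the 23 on chromosome 11, 0 of the 3 on chromosome 10 and 0 of the 5 on chromosome 7. Within each chromosome all Krtap genes had the same outcome, so these counts are not separate placements. All 57 lay inside a TAD in 2D, and 52 in 3D, where the 5 of chromosome 7 lay outside. Of all genes, 22.7% lay outside in 2D and 15.9% in 3D.

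Sequence properties that can affect Hi-C were measured for the same regions. The shared part of the chromosome 11 TADs had 103 MboI sites per 40 kb bin, and the 2D TADs of chromosome 15 had 104, against a mean of 99.8 over all autosomal bins without unknown bases (quartiles 89 and 109). The unassigned 2D stretch with Krt8 and Krt18 had 110.5 sites per bin and the 3D TAD of these genes 113. Repeats made up 26.5% of the bases in the chromosome 11 domain, 21.3% on chromosome 15, 30.2% in the unassigned stretch and 32.4% in the 3D TAD, against 33.5% over all bins. Bases were G or C in 44.4%, 48.2%, 48.6% and 48.2% of cases, against 41.9%. The part of these properties in the placement of Krt8 and Krt18 was not tested. The authors had set the contacts of each chromosome to equal depth before calling domains. Culture and hydroxyurea exposure time cannot be told apart in the design.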

How the data were processed

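In situ Hi-C was performed by the authors on 2 replicates each of 2D- and 3D-cultured AML12 cells. Per the labels and the paper's methods, reads were mapped to mm10 with Bowtie2 (version 2.2.9), replicates were combined, matrices at 40 kb were normalized with ICE, contacts of each chromosome were set to equal depth, and domains were called with Armatus (gamma 0.8). The deposited values are TAD start and end positions in bp, with no counts or scores, so depth and precision per TAD are unknown.

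Genes were taken from GENCODE release M21. A gene's start is the 5′ end of its gene record, coordinates are 1-based, and a gene lies in the TAD that holds its start. All analyses used Python (version 3.11.15), numpy (2.4.6), pandas (2.3.3) and matplotlib (3.10.9). The placement functions were tested on simulated lists. No p-value was computed. The rule for named genes took Krt8, Krt18, Krt19, cluster ends, genes beside borders, and genes outside TADs or without a counterpart. The members, lists and alternatives (gene position, border distance, matching, TAD size, segments of 80 kb, border definition and symbol form) were chosen with earlier results of these data known. Krt3, Krt74 and Krt85 were in the class lists but not among the members. The CTCF core motif is given by name and number of fixed bases. Promoters matched 36 of 53 genes.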

Additional observations from a re-analysis of the deposited data

How the results depend on the processing

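Of 131 values of the keratin genes and clusters under the alternatives, 110 were the same (counts within 1.5 times) and 21 moved. None of the 20 values over all genes moved with the midpoint of the gene or with chromosomes 11 and 15 only, while their shares under other border and matching rules are given with the results. Unless stated, the cause was not tested. At a distance of 0 kb, 7 chromosome 15 genes had a counterpart in place of 24, 1 of the 2 borders within its span was shared in 2D and 1 in 3D, and 0 genes lay at a border (chromosome 11 in 2D, chromosome 15 in both cultures). At 80 kb, 27 chromosome 11 genes had a counterpart, its 1 border in 2D was shared, and the genes near a border numbered 5 in 2D and 3 in 3D on chromosome 11, and 14 and 15 on chromosome 15; a longer distance takes in more genes by construction. With a reciprocal overlap of 80% or 50%, 27 chromosome 11 genes had a counterpart. With only positions where 2 TADs meet as borders, chromosome 11 had 0 borders in its span and 0 genes near a border in 2D, and chromosome 15 had 1 border in its span in 2D, 1 shared in 2D and 1 in 3D, and 3 genes near a border in 2D. Without the chromosome 11 TAD, a choice made after seeing the data, 92.3% of the genes had a counterpart. The midpoint of a gene, the whole gene and symbols with digits only moved no count by over 1.5 times. No paired analysis was possible because each list was called on merged replicates, and for the same reason no replicate could be left out. With 1 list per culture and borders on a 40 kb grid, neither a shift of 1 bin nor the placement of Krt8 and Krt18 can be compared with replicate variation.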

Other observations

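The promoters of the keratin genes held TATAAA more often than promoters in general. Of the 36 keratin genes with a RefSeq promoter window, 19 (52.8%) had a match on either strand anywhere in the window, against 13.6% of all windows, while GGGCGG was found in 2 (5.56%) against 35.9%, and TGANTCA in 1 (2.78%) against 7.79%. These genes are related by duplication and are not independent, so the shares are a description of the family. The Krt8 window held TATAAA, and the Krt18 window did not, although these genes are partners and neighbours.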
